A study of Mus musculus with 11 samples.

Results

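The 43 genes described here are the cell cycle, replication and histone genes among the differentially expressed genes of a mouse model of HER2-driven breast cancer. They were chosen by gene symbol alone: protein-coding genes of the deposited table whose symbols begin like those of cyclins (Ccn), cyclin-dependent kinases and their partners (Cdk), Cdc20 and related mitotic regulators, helicase, origin, polymerase and clamp genes, E2f and pocket protein genes, Plk, Aurk and Bub kinases, centromere proteins (Cenp), kinesins (Kif), histones (Hist and H2af), Smc ATPases, repair genes (Fanc, Brca, Rad5) and Trp53. The table held 4461 genes, of which 4056 were protein coding. Symbols of 44 genes matched, and 1 of these was not protein coding, which left 43.

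RNA was sequenced from cell lines grown out of mammary tumors of female MMTV-NIC mice, excised 8 weeks after palpation. In NIC mice the MMTV promoter, which is active in mammary epithelium, drives oncogenic ErbB2 (Neu NDL) and Cre recombinase from a single transcript, so every line carried both, controls included. Of the 6 lines, 2 had wild-type Cpt1a alleles (NIC/Cpt1a+/+: WT_5257 and WT_8905), and 4 came from mice with homozygous conditional Cpt1a alleles (NIC/Cpt1aL/L: KO_1922, KO_1925, KO_2768 and KO_4258). Cpt1a, the enzyme that commits long-chain fatty acids to import into mitochondria, was itself not in the table, so its loss could not be checked here. Each line was sequenced in duplicate, except KO_2768 with 1 library, and the line was the replicate (n = 4 and n = 2), with no treatment applied.

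The cell cycle is driven by cyclins, which bind and activate cyclin-dependent kinases. In mammary epithelium ErbB2 signaling acts in part through D-type cyclins, which with CDK4 and CDK6 relieve the block that pocket proteins place on E2F factors. E2F factors then induce the genes of DNA replication, among them the clamp Pcna, polymerase subunits, origin and helicase proteins and Cdk2. Genes of mitosis, such as Cdc20, peak later and are held down in G1 through short promoter elements (CHR) that often lie near CCAAT boxes. Histone genes of the large clusters are expressed mainly in S phase and give transcripts that mostly lack a poly(A) tail.

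Promoter sequence is shown for 4 genes: Cdk2 and Fancm, which hold E2F-like letters, Cdc20 with its mitotic elements, and the clamp gene Pcna, whose window holds no such letters. RefSeq windows (GRCm38.p6) were matched for 32 of the 43 genes, and Ccnd1, Ccnd2, H2afj, Hist1h4j, Hist1h2bj, Hist1h1c, Hist1h4d, Aurkaip1, Cdk5r1, Cdk17 and E2f4 were not matched. The 150 bases before the annotated start are printed on the strand of the gene, with searched letters of either strand in capitals: for E2F, 7 letters that begin with TT, go on with any pair of C and G, and end with CGC, for CHR the letters TTTGAA, and the CCAAT box itself. The windows are chr2:132253181-132253330 on the minus strand for Pcna, chr10:128705052-128705201 minus for Cdk2, chr12:65075453-65075602 plus for Fancm and chr4:118437344-118437493 minus for Cdc20.
Pcna: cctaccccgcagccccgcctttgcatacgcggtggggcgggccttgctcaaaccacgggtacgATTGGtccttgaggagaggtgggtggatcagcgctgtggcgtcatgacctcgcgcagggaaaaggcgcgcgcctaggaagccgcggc
Cdk2: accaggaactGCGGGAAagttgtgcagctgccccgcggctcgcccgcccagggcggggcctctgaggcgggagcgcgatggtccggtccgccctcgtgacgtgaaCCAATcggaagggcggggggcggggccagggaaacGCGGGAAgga
Fancm: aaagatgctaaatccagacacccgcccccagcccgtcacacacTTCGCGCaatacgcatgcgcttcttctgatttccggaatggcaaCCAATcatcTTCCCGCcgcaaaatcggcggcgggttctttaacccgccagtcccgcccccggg
Cdc20: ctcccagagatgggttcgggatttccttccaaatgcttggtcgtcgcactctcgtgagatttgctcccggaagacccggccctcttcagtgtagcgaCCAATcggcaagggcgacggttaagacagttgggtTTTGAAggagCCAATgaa
In Cdk2 the E2F-like letters begin 140 and 10 bases before the start, and in Fancm 107 and 54 bases before it. Cdc20 carries the CHR letters 18 bases and CCAAT 53 and 8 bases before its start, whereas Pcna holds CCAAT alone, on the opposite strand. Over the 250 bases upstream, E2F-like letters were present in 5 of the 32 matched genes (15.6%: Cdk2, Cdk2ap2, E2f3, Fancm and Pole4), and in 9.01% of all 27025 genes with a window. CHR letters were found in 3 (9.38%: Cdc20, E2f3 and Kif1a, against 18.3%), and CCAAT in 18 (56.2%, against 37.5%). A gene counted if any of its windows held the letters, and such matches describe letters, not bound sites. The searches are not wholly independent, since E2F-like letters and CCAAT can share bases, as they do in Cdk2ap2 (89 and 86 bases before the start).

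All genes of the table had passed the authors' comparison of the genotypes on these same libraries. Differences between genotypes are therefore given as a description of genes already selected for differing, and tests of them are not independent evidence. Well-known cell cycle genes such as Mki67 and the CDK inhibitor gene Cdkn1a, and Trp53 and Erbb2, were not in the table and were not analysed here. Libraries held between 15199378 and 25386785 counted reads, and the NIC/Cpt1aL/L libraries (at least 18247312) were all deeper than the control libraries (at most 17372643). The effect of depth was not tested. Levels are given as CPM, counts scaled to 1000000 reads of the line, after scaling of the lines with TMM factors of 0.969 to 1.05. In bulk RNA a smaller share of cells in a phase and less RNA per cell cannot be told apart. Of the epithelial markers 1 of 12 was in the table (Elf3), so the epithelial label could not be checked further. Elf3 had 73.39 CPM in KO_4258, and 19.45, 18.74 and 11.01 in KO_1922, KO_1925 and KO_2768. In WT_5257 and WT_8905 it had 11.87 and 11.65 CPM. Libraries of KO_2768 and KO_4258 stood apart in markers of other cell types: the summed CPM of the 4 mesenchymal markers in the table (of 12) was 1393 in KO_2768, 3.29 and 7.77 in the KO_1925 and KO_1922 lines, and at most 0.0937 in KO_4258 and the controls. Dcn alone made up 1368 CPM of the sum in KO_2768, where Pdgfrb had 13.4, Thy1 6.16 and Col1a2 5.70. Csf1r, a macrophage receptor and the blood cell marker in the table (1 of 11), had 312 CPM in KO_4258 and between 0.03 and 17.2 in the other lines. Of the myoepithelial markers 2 of 7 were in the table, and 1 of them, the keratin Krt17, was above both controls in every NIC/Cpt1aL/L line: it had 10.6, 2.90, 3.14 and 1.17 CPM in KO_1922, KO_1925, KO_2768 and KO_4258, and 0 reads in WT_5257 and 1 in WT_8905 (adjusted p = 0.0536, edgeR). The other, Acta2, had 1.02, 0.522, 3.88 and 0.046 CPM in those lines, and 0 and 0.0937 in the controls. The part of either in the differences between genotypes was not tested. No endothelial marker (0 of 6) was in the table.

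No member passed the test between genotypes when the cell line was the replicate (edgeR quasi-likelihood F-test with Benjamini-Hochberg adjustment over 4268 genes of the table, threshold 0.05). Of 42 members tested, 0 were raised, where 1.66% of all tested genes were, and 0 were lowered, where 3.47% were. Adjusted p-values of the members lay between 0.0529 and 0.221, and 7 higher and 10 lower members had an unadjusted p under 0.05 (917 and 1237 of all tested genes). DESeq2 on the same line sums raised 1 member (Hist1h1c, 2.33% of 43, against 22.2% of all genes) and lowered 15 (34.9%, against 33%). With every library treated as a separate sample, edgeR raised 22 and lowered 17 of 41 members (53.7% and 41.5%, against 47.5% and 42.6%), and those p-values are too small because duplicates of a line are not independent.

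The sizes were small for the table. The median absolute log2 fold change was 0.698 over the members and 1.19 over all genes tested. Signed medians were 0.517 and 0.494, and 59.5% of members and 58.6% of all genes were on the higher side. In 15 members every NIC/Cpt1aL/L line was above both controls (35.1% of all tested genes), in 15 every line was below both (38.2%), and in 13 the lines overlapped. Those below both controls included Ccnd1, 2 of 3 CDKs, 2 of 3 E2F factors, 4 of 6 replication genes and the histone variant H2afj.

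**Figure D1:**
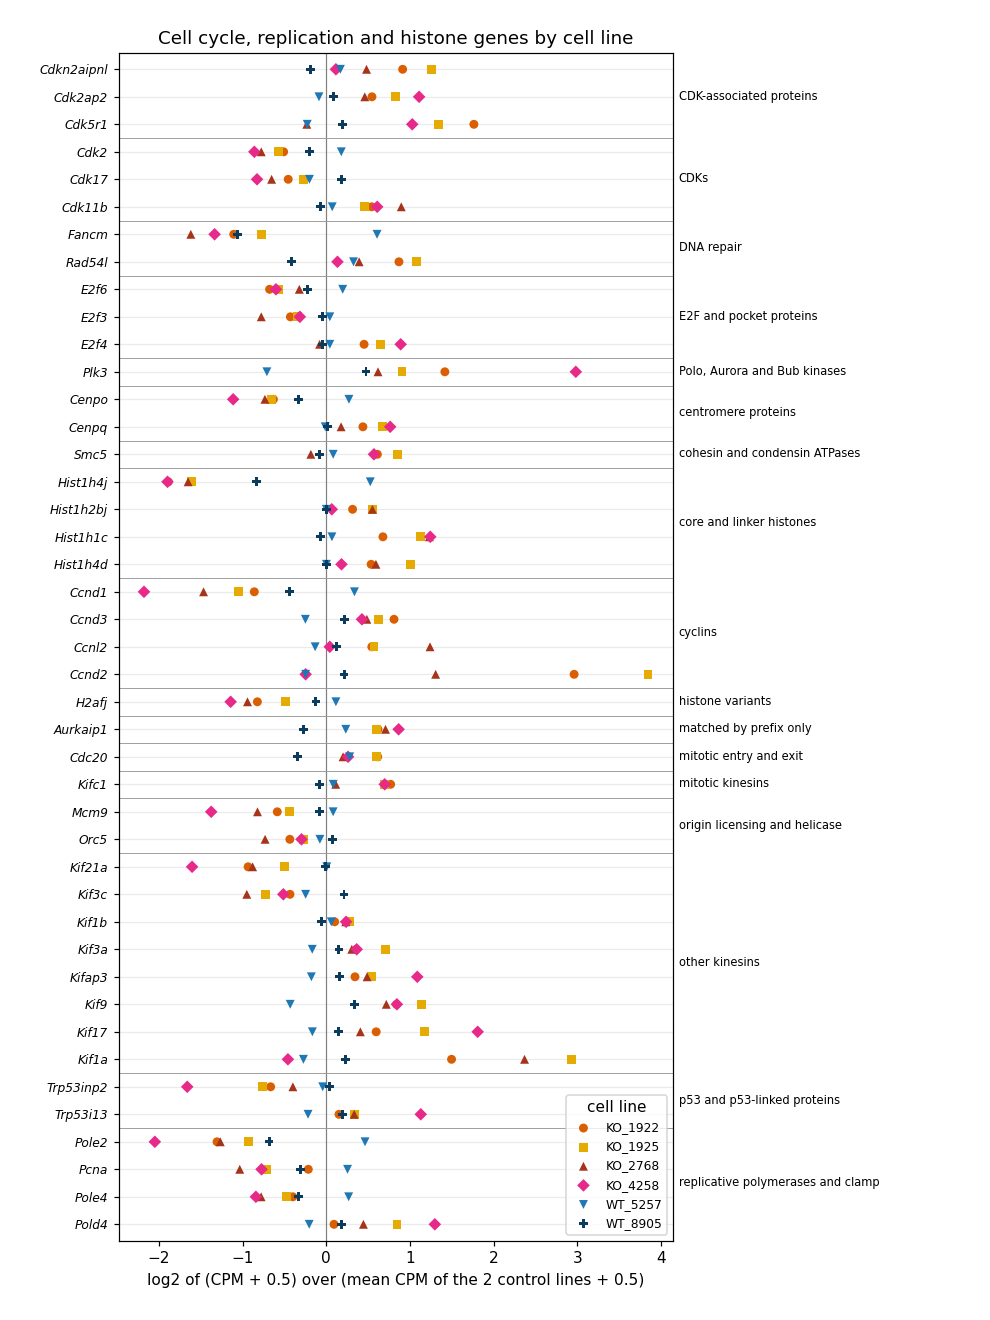
Level of each of the 43 genes in the 6 cell lines, as log2 of (CPM + 0.5) over the mean of the 2 control lines plus 0.5, with 1 symbol per line and genes grouped by role. Ccnd1, Pole2 and Hist1h4j had all NIC/Cpt1aL/L lines to the left of both controls, and Hist1h1c had them to the right, while Ccnd2 and Kif1a spread over several log2 units among the NIC/Cpt1aL/L lines.

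Cyclins gave the highest level and the widest spread. Ccnd1 (cyclin D1, chr7:144929931-144939869) was the member with the highest FPKM, a level per kilobase of gene, at 263 on average. Its CPM was 2075 in WT_5257 and 1212 in WT_8905, against 904 in KO_1922, 795 in KO_1925, 594 in KO_2768 and 362 in KO_4258. All 4 NIC/Cpt1aL/L lines were below both controls, and the means were 664 ± 239 (SD, n = 4) and 1643 ± 610 (n = 2). The log2 fold change was -1.31 with an SE of 0.42 (adjusted p = 0.0767, edgeR), and DESeq2 called the gene lowered. Single libraries kept this order, with 347 to 933 CPM in NIC/Cpt1aL/L and 1165 to 2034 in control libraries.

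Ccnd3 (cyclin D3) lay on the other side. It had 92.9, 81.8, 74.1 and 71.1 CPM in KO_1922, KO_1925, KO_2768 and KO_4258, and 44.3 and 61.3 CPM in WT_5257 and WT_8905. Every NIC/Cpt1aL/L line was above both controls, by 0.60 on the log2 scale (SE 0.22, adjusted p = 0.0871, edgeR). Ccnd2 (cyclin D2) was near absent from the controls, with 0 reads in WT_5257 and 6 in WT_8905. It had 8.04 CPM in KO_1925, 4.13 in KO_1922 and 0.97 in KO_2768, while KO_4258 had 0 reads like WT_5257. The lines therefore overlapped, and no fold is given.

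Per length, cyclin D1 was the main D-type transcript in every line. The summed FPKM of Ccnd1, Ccnd2 and Ccnd3 was 550 and 329 in WT_5257 and WT_8905, and 280, 241, 181 and 112 in KO_1922, KO_1925, KO_2768 and KO_4258. Ccnd1 made up 98.0% and 95.3% of that sum in the controls and between 84.0% and 90.7% in the NIC/Cpt1aL/L lines. The FPKM ratio of Ccnd1 to Ccnd3 was 48.0 and 20.4 in the controls and between 5.25 and 10 in the other lines. The ratio could not overlap, because Ccnd1 was below both controls and Ccnd3 above both in every NIC/Cpt1aL/L line. It is therefore no separate evidence of a difference between genotypes. Ccnl2, a cyclin of transcription and splicing kinases, had 90.7 to 209 CPM against 80.3 and 96.0, with overlap through KO_4258.

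**Figure D2:**
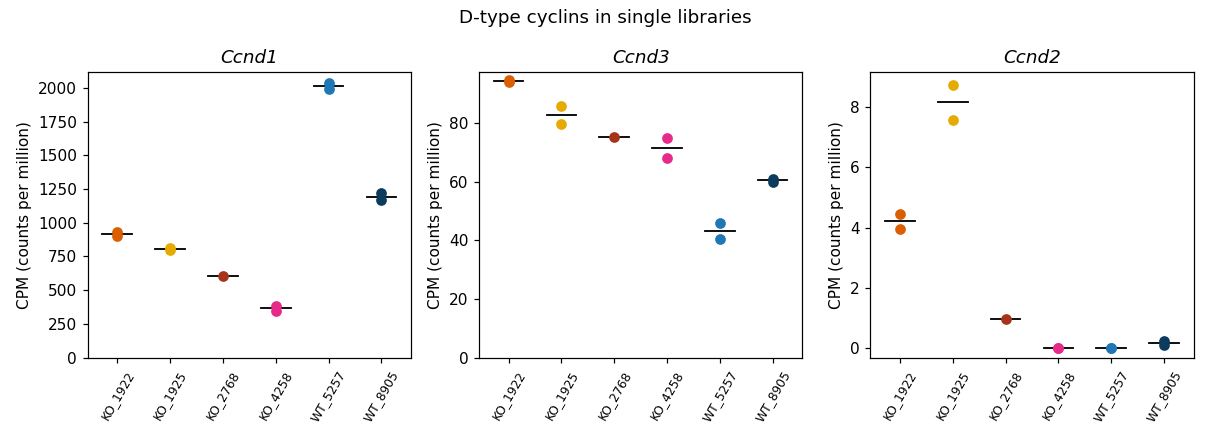
CPM of the D-type cyclins in each library, by cell line, as points, with the mean of a line's libraries as a bar. Control libraries are highest for Ccnd1 and lowest for Ccnd3, and Ccnd2 is at or near 0 in the controls and in KO_4258.

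The CDKs lay on both sides of the controls. Cdk2, which with cyclins E and A drives S phase (chr10:128697939-128705051), had 87.0 and 66.6 CPM in WT_5257 and WT_8905 against 53.8, 51.6, 44.6 and 42.1 CPM in KO_1922, KO_1925, KO_2768 and KO_4258. All 4 lines were below both controls, by -0.68 on the log2 scale (SE 0.20, adjusted p = 0.0689, edgeR). Cdk17 was also below both, at 34.8 to 51.3 CPM against 54.1 and 70.5. Cdk11b, a kinase of transcription and splicing, was above both, at 81.0 to 110 CPM against 61.7 and 55.8. Among genes named for CDKs, Cdk2ap2 was above both controls (42.5 to 67.0 against 28.9 and 32.6 CPM), whereas Cdkn2aipnl and Cdk5r1, the neuronal activator of Cdk5, overlapped with them. Levels of Cdk5r1 were at most 4.13 CPM.

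E2F factors and the polo-like kinase followed. E2f3, an activator of S phase genes, had 32.3 to 44.6 CPM against 57.4 and 54.1, and E2f6, a repressor that acts without pocket proteins, had 32.3 to 41.4 against 59.6 and 44.3. Both were below the controls in every line. E2f4, which works mainly with pocket proteins in resting cells, had 51.9 CPM in KO_2768, under both controls (56.5 and 53.3), and 75.2, 86.3 and 102 in KO_1922, KO_1925 and KO_4258. Plk3, a stress-responsive polo-like kinase, had 90.1 CPM in KO_4258, 30.1 in KO_1922, 21.0 in KO_1925 and 17.1 in KO_2768, against 6.50 in WT_5257 and 15.4 in WT_8905. All lines were above both controls, with a log2 fold change of 1.85 (SE 0.86). It went to 1.06 without KO_4258, 1.27 without WT_5257 and 2.61 without WT_8905. Without KO_1922, KO_1925 or KO_2768 it was between 1.89 and 2.07.

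The replication genes were followed through polymerases, clamp, origin and helicase. Of the 4 polymerase and clamp genes and 2 origin and helicase genes, 5 had a log2 fold change below 0 and 1 above 0, where 58.6% of all tested genes were, and 4 were below both controls in every line, where 38.2% of all tested genes were. These counts are too small to set the replication genes apart. Pole2, the second subunit of the leading-strand polymerase (chr12:69201779-69228190), had 16.3, 21.3, 16.8 and 9.54 CPM in KO_1922, KO_1925, KO_2768 and KO_4258, against 56.9 and 25.4 in WT_5257 and WT_8905. This was a log2 fold change of -1.36 (SE 0.44, adjusted p = 0.0767, edgeR), and -0.77 without WT_5257. Pcna, the sliding clamp, was the next most abundant member after Ccnd1, with an average FPKM of 163. It had 391 and 265 CPM in WT_5257 and WT_8905, and 282, 199, 160 and 192 in KO_1922, KO_1925, KO_2768 and KO_4258. KO_1922 exceeded WT_8905, so the lines overlapped, at a log2 fold change of -0.66 (SE 0.29, adjusted p = 0.106, edgeR).

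The smaller replication subunits divided. Pole4 was below both controls (31.3 to 42.7 against 68.1 and 44.9 CPM), and so were the helicase-related Mcm9 (6.42 to 12.7 against 18.5 and 16.4) and the origin protein Orc5 (19.9 to 27.6 against 31.7 and 35.2). Pold4, the small subunit of polymerase delta, was the exception, at 24.2 to 56.4 CPM against 19.6 and 25.7, with KO_1922 between the controls. Of the repair genes, Fancm, the translocase of the Fanconi pathway, had 13.4 to 24.5 CPM against 64.6 in WT_5257 and 19.9 in WT_8905. Its log2 fold change of -1.20 (SE 0.49) became -0.21 without WT_5257, so it rested on that control line. Rad54l, a motor protein of homologous recombination, had 13.1 to 25.6 CPM against 14.99 and 8.74, with overlap.

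Histone genes gave the lowest adjusted p-value of all members. Hist1h1c, a linker histone (chr13:23738808-23740367), had 42.03, 57.6, 62.0 and 62.5 CPM in KO_1922, KO_1925, KO_2768 and KO_4258, against 27.4 and 24.9 in WT_5257 and WT_8905. All lines were above both controls (56.0 ± 9.58, n = 4, and 26.1 ± 1.78, n = 2), with a log2 fold change of 1.10 (SE 0.23, adjusted p = 0.0529, edgeR). The duplicates of KO_4258 were far apart for this gene, at 86.8 and 33.0 CPM. The lower of them still exceeded the highest control library (27.2). Over the table too, duplicates of KO_4258 disagreed most, by a chi-square per degree of freedom of 9.27. It was between 2.12 and 3.1 in the other lines with duplicates. H2afj, an H2A variant made outside the large clusters, had 72.6 to 115 CPM against 174 and 148, all below the controls (log2 fold change -0.83, SE 0.22, adjusted p = 0.0645, edgeR).

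Transcripts of the few clustered core histone genes in the table were rare in these libraries. The part of library preparation in these low counts was not tested. Hist1h4j had 0.58, 0.81, 0.78 and 0.57 CPM in KO_1922, KO_1925, KO_2768 and KO_4258, against 5.27 and 1.75 in WT_5257 and WT_8905, which was the lowest log2 fold change of all members (-2.35, SE 0.61, and -1.44 without WT_5257). Hist1h4d had between 1 and 17 reads per NIC/Cpt1aL/L library and 0 to 2 per control library. Hist1h2bj had at most 6 reads in any library and 0 in the 4 control libraries, where a count of 0 allows up to 0.173 to 0.197 CPM, and it fell under the filter for low counts. H4 genes are near-identical copies in their coding sequence, so the division of reads between them is uncertain.

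Cdc20 and Kifc1, which act in mitosis, were on the higher side, with small differences. Cdc20, the activator of the anaphase-promoting complex, had 95.9, 94.8, 71.9 and 75.0 CPM in KO_1922, KO_1925, KO_2768 and KO_4258, against 76.0 and 49.0 in WT_5257 and WT_8905. KO_2768 and KO_4258 lay between the controls. Kifc1, a kinesin that clusters centrosomes, had 76.2, 72.6, 48.1 and 72.5 CPM against 47.1 and 41.9, above both controls in every line (log2 fold change 0.60, SE 0.24). The kinetochore genes Cenpq and Cenpo lay on opposite sides: Cenpq had 14.2 to 21.6 CPM against 12.4 and 12.6, and Cenpo 8.76 to 12.4 against 23.7 and 15.4. Smc5, of the SMC5/6 complex, had 65.5 CPM in KO_2768 and 111 to 134 in the other NIC/Cpt1aL/L lines, against 79.0 and 70.2.

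The other kinesins are motors of interphase transport and cilia rather than of mitosis. Kifap3, a partner protein and not a motor, was counted with them. Of these 8 genes, 6 had a log2 fold change above 0 (58.6% of all tested genes), and 5 were above both controls in every line (35.1% of all tested genes). Kif21a (26.0 to 56.5 against 80.4 and 79.8 CPM) and Kif3c (43.0 to 61.7 against 70.3 and 96.8) were below both. Kif1a, a neuronal vesicle motor, had 1.53, 4.98 and 3.22 CPM in KO_1922, KO_1925 and KO_2768, but 1 read in KO_4258, against 0.09 and 0.34 CPM in the controls. Kif9 and Kif17 were above both controls at low levels (4.11 to 5.69 against 1.58 and 3.03, and 0.62 to 2.46 against 0.25 and 0.44 CPM), and Kif3a, its partner Kifap3 and Kif1b were above both by 0.21 to 0.65 on the log2 scale. The genes named for p53 were Trp53inp2, an autophagy protein (46.2 to 112 CPM against 143 and 152, below both), and Trp53i13 (12.8 to 25.6 against 9.75 and 13.1, with overlap). Aurkaip1, a protein of the mitochondrial ribosome despite its name, was above both controls (54.4 to 65.6 against 42.1 and 29.4).

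Lines of 1 genotype differed from each other in most members, in tests that did not enter the listing of the genes. Among the 4 NIC/Cpt1aL/L lines, 39 of 42 members differed (92.9%, against 88.6% of all genes tested, edgeR adjusted p under 0.05 with the spread taken from duplicates), all but Hist1h4d, Hist1h4j and Kif9. Between the control lines, 28 of 42 differed (66.7%, against 61.1%), 14 higher and 14 lower in WT_8905. Ccnd1 differed in both tests: 2.50-fold between the highest and the lowest NIC/Cpt1aL/L line (adjusted p = 5.04e-28, edgeR), and by -0.72 on the log2 scale in WT_8905 over WT_5257 (adjusted p = 4.05e-18, edgeR). Plk3 had the lowest adjusted p-value among the NIC/Cpt1aL/L lines (5.27-fold, 4.28e-29, edgeR). Fancm had the lowest adjusted p-value between the controls (3.63e-21, edgeR), at a log2 ratio of -1.65. By contrast, E2f3 and Hist1h1c had control lines that did not differ past the threshold (adjusted p = 0.713 and 0.756, edgeR). The duplicates are libraries of the same line, so these p-values measure spread within a line only. As given above, the duplicates of KO_4258 disagreed more than those of the other lines.

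KO_1925 was the highest NIC/Cpt1aL/L line in 17 of the 42 members (40.5%, against 22.2% of all tested genes), and the lowest in 2 (4.76%, against 17.6%). KO_2768 was the highest in 4 (9.52%, against 31.0%) and the lowest in 16 (38.1%, against 30.4%). KO_4258 was the lowest in 18 (42.9%, against 36.4%) and the highest in 11 (26.2%, against 30.8%). KO_1922 was the highest in 10 (23.8%, against 16.0%) and the lowest in 6 (14.3%, against 15.6%). KO_2768 was thus seldom the highest line for the members, although it was the highest line in 31.0% of all genes. Its mesenchymal marker level and its single library, given above, moved with this pattern, and their part in it was not tested. For genes with at least 1 CPM in every line, the median log2 ratio of the highest to the lowest NIC/Cpt1aL/L line was 0.657 in the members and 0.676 in all tested genes.

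Members mostly had the direction of their chromosome. Of the 42 members, 33 (78.6%) were on the side of most of the other table genes of their chromosome. Of all tested genes, 66.5% were on the side of most tested genes of their chromosome, with the gene itself and the members counted in. On chromosome 4, 288 of 339 other genes were higher in the NIC/Cpt1aL/L lines (85.0%), and so were all 8 members there (Aurkaip1, Ccnl2, Cdc20, Cdk11b, Kif17, Kif1b, Plk3 and Rad54l). On chromosome 12, 37 of 234 other genes were higher (15.8%), and all 5 members (Cenpo, E2f6, Fancm, Kif3c and Pole2) were lower. On chromosome 17, 85.9% of the others were higher, as were Ccnd3, Cenpq and Kifc1, and on chromosome 19, 78.7% were, as were Cdk2ap2, Pold4 and Smc5. The table genes of some chromosomes also lay to 1 side between the controls, and only genes selected for differing between genotypes were seen. The median log2 ratio of WT_8905 over WT_5257 was -0.617 for the other genes of chromosome 12, with Fancm at -1.65, Pole2 at -1.11, Cenpo at -0.56 and E2f6 at -0.37, but Kif3c at 0.52. For chromosome 17 it was 0.922, with Ccnd3 at 0.52, Cenpq at 0.08 and Kifc1 at -0.12. For chromosome 5 it was 0.604, with Orc5 at 0.20. The part of these differences by chromosome in the members' values was not tested. The other 9 members lay on the opposite side from most genes of their chromosome: E2f3, Hist1h4j, Cdk2, Cdk17, Mcm9, Orc5, Kif21a, Kif9 and Ccnd2.

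**Figure D3:**
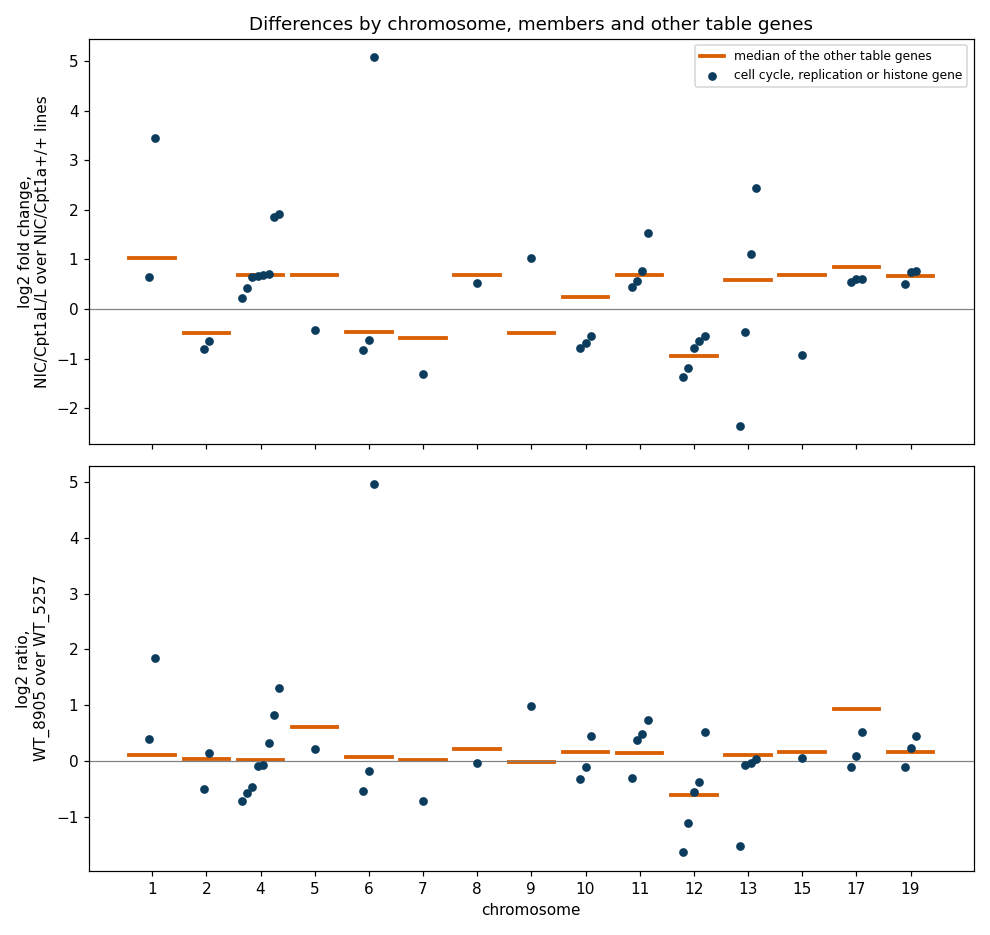
Log2 fold change between genotypes (top) and log2 ratio of WT_8905 over WT_5257 (bottom) for each tested member (points), by chromosome, with the median of the other tested table genes of that chromosome as a bar. All 8 members on chromosome 4 lie above 0 and all 5 on chromosome 12 below 0 in the top panel. The chromosome 5, 12 and 17 medians in the bottom panel are 0.604, -0.617 and 0.922.

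Lists of phase genes were mostly outside the table. Of 43 genes typical of S phase, 4 were in it, and all 4 had a log2 fold change below 0 (Ubr7, Wdr76, Ung and Pcna, median -0.975, against 0.494 over all tested genes), of which 3 were below both controls in every line (38.2% of all tested genes were). The summed level of the 4 was 587 and 392 CPM in WT_5257 and WT_8905. It was 369, 294, 223 and 267 in KO_1922, KO_1925, KO_2768 and KO_4258, under both controls in all 4 lines. Most of the sum was Pcna, with 391 and 265 CPM in the controls and 160 to 282 in the NIC/Cpt1aL/L lines. Pcna alone overlapped between genotypes. Of 54 genes typical of G2 and M phase, 4 were in the table, and all 4 had a log2 fold change above 0 (Ndc80, Cdc20, Hjurp and Ckap5, median 0.409), of which 1, the kinetochore gene Ndc80, was above both controls (35.1% of all tested genes were). The sign for Ckap5 turned under DESeq2 and its size factors. No gene of either list passed the edgeR test over lines.

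Of 30 targets of p53, 11 were in the table, 10 with a log2 fold change above 0 and 1, Rrm2b, below 0 (median 0.831), against 58.6% above 0 and a median of 0.494 over all tested genes, and 0 passed the test. KO_4258 was unlike the other NIC/Cpt1aL/L lines in several of them, named here after their values were seen. Eda2r had 25.4, 19.6 and 41.4 CPM in KO_1922, KO_1925 and KO_2768, but 0.09 in KO_4258, as in both controls. Pmaip1, the gene of the death-promoting protein Noxa, had 31.0, 39.2 and 26.9 CPM in those lines, 0 reads in KO_4258, and 1.89 and 1.28 CPM in the controls. Btg2, an antiproliferative gene, had 75.7, 72.6 and 82.8 CPM, then 22.6 in KO_4258 and 31.2 and 29.2 in the controls. Apaf1, part of the apoptosome, had 48.9, 47.4 and 43.2 CPM, then 20.2 in KO_4258 and 21.1 and 27.3 in the controls. Without KO_4258, 4 genes of the list passed the test (Eda2r, Pmaip1, Btg2 and Apaf1), all higher in NIC/Cpt1aL/L lines. That comparison was of 3 lines with 2, and 6.99% of all tested genes were raised in it. KO_4258 lay at or below the controls in these 4 genes, so leaving it out favored their passing, which is no separate evidence. Plk3, which belongs to both this list and the members, ran the opposite way, with its highest level in KO_4258. KO_4258 was also the line with 312 CPM of Csf1r, and the part of that in these values was not tested.

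**Figure D4:**
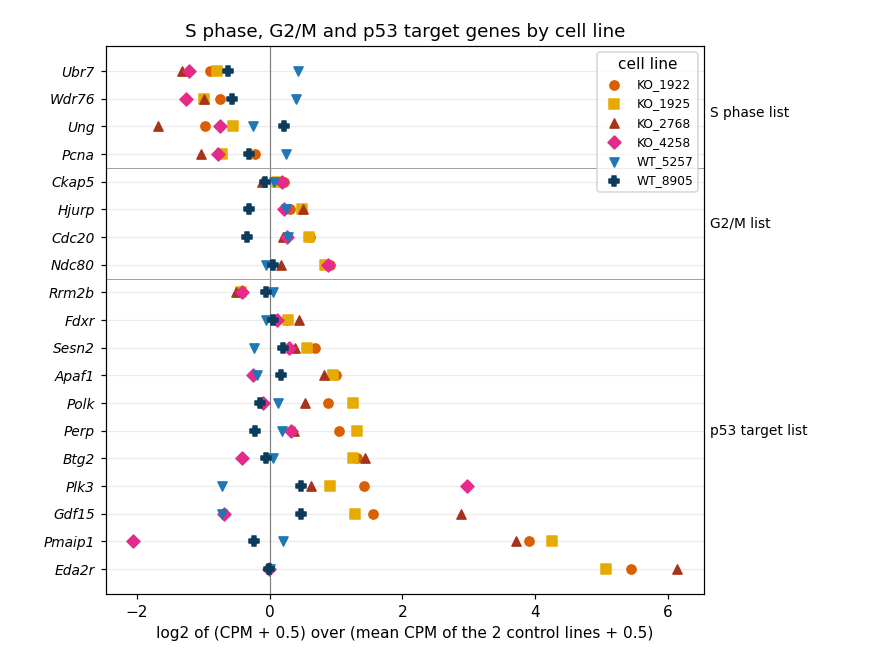
Genes of the S phase, G2/M and p53 target lists that were in the table, by cell line, as log2 of (CPM + 0.5) over the mean of the 2 control lines plus 0.5. KO_4258 lies at or left of the controls for Eda2r, Pmaip1, Btg2 and Apaf1, where the other NIC/Cpt1aL/L lines lie to the right, and it is farthest right for Plk3.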

How the data were processed

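Libraries were prepared from total RNA with a NEBNext Ultra II kit and sequenced by a service provider. The authors aligned reads to mm10 with STAR and counted reads per gene with HTSeq, and the submitters' processing notes also name Trimmomatic, edgeR and limma. Whether strand was used in counting is not given in the sources used here. The deposited table held raw counts, FPKM (reads scaled by gene length and library total), and a normalized signal that the authors made by dividing each count by 1 size factor per library. It listed only genes that passed the authors' own DESeq2 comparison, whose log2 fold change, p-value and adjusted p-value columns were not used. Counts and FPKM together gave each library's total, of which the table carried 33.3% to 34.6%.

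Duplicates of a line were summed. Sums were scaled by the totals and TMM, filtered with filterByExpr and tested with edgeR 4.0.16 (quasi-likelihood F-test, two-sided, R 4.3.3), with Benjamini-Hochberg adjustment over all tested table genes. CPM of single libraries used factors fitted over libraries. Lines of 1 genotype were compared on libraries, with the spread from duplicates. Alternatives used DESeq2 1.42.0, limma 3.58.1, other scalings and left-out lines. Scripts were tested on simulated data. Titles of the samples word the allele status the other way, and groups were taken from the genotype field and line names.

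Members and lists were chosen with earlier results of these data known. The text was to name members on a list of 41 well-known genes (6 were in the table), members that passed the test and, in each role, the 3 with the largest changes each way, which gave 39. Kif3a, Kifap3 and Kif1b were named beside them. Spread between lines includes the animals and the culture of each line. Samples labelled A and B in different lines shared no deviation (Pearson's r of -0.043 to 0.0359 over 10 pairs across genes), so they were not treated as pairs.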

Additional observations from a re-analysis of the deposited data

Results flagged for a closer look

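Among the 4 NIC/Cpt1aL/L lines, 5 of 58 genes looked at had 1 line far from the others by Dixon's test, in which the gap to the nearest line is divided by the whole range and set against the 95% critical value. Chance alone flags about 5% of groups. Kifc1 was low in KO_2768 (ratio 0.869), at 48.1 CPM against 72.5 to 76.2 in the other lines. Kif3a was high in KO_1925 (0.869), at 69.1 CPM against 52.3 to 54.5. Trp53i13 was high in KO_4258 (0.857), at 25.6 CPM against 12.8 to 14.6. Ndc80, a G2/M gene, was low in KO_2768 (0.874), at 31.7 CPM against 50.7 to 53.4. Btg2, a p53 target, was low in KO_4258 (0.83), at 22.6 CPM against 72.6 to 82.8. Kifc1 and Ndc80 thus had the same low line, and both lie on chromosome 17.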

How the results depend on the processing

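With the line as replicate, edgeR called 0 members in either direction under every other scaling, without the filter, and without each line in turn, and the limits are the 2 control lines and a table of preselected genes. DESeq2 on line sums called 1 member raised and 15 lowered, 3 genes of the S phase list and 2 of the p53 list. Treating every library as a separate sample called 22 and 17 members and 4, 3 and 8 genes of the S phase, G2/M and p53 lists. Adding a replicate block for the library letter to that fit gave 20 and 17 members and 4, 2 and 6 list genes, and the letters do not pair the samples. The limma-voom fit with a correlation of 0.955 between duplicates called 6 members lowered (Ccnd1, Cdk2, Kif21a, Kif3c, Pole2 and Trp53inp2) and 3 S phase genes. Using 1 library per line called 1 member lowered, H2afj. The p53 list ranged from 0 to 4 genes called when lines were left out, with 4 without KO_4258. The log2 fold change of Ckap5 turned to -0.02285 under DESeq2 and -0.02408 with DESeq2's size factors, and no other tested member or gene of the 3 lists changed sign. The cause of these shifts was not tested. Over all tested genes the median log2 fold change was 0.494, and it was 0.369 with DESeq2's and 0.594 with the authors' size factors. All-gene calls were 71 raised and 148 lowered, 974 and 1446 under DESeq2, 1873 and 1680 with libraries separate, 305 and 919 in limma-voom, 294 and 347 without KO_4258, 90 and 252 without the filter, 105 and 301 with DESeq2's size factors, 57 and 82 with the authors' size factors, 55 and 93 without TMM, 78 and 221 with 1 library per line, and 0 and 0 without KO_1922, KO_1925 or WT_5257 and when adjusted over 20000 genes. Placement counts (15 above, 15 below) ran from 12 to 20 and from 13 to 17 over all alternatives. These included scalings and left-out lines chosen after seeing the data. Over the scalings alone, the share of all tested genes ran from 28.4% to 40.6% above and from 34.7% to 39.2% below. Over the alternatives, 34 to 39 members were called among the NIC/Cpt1aL/L lines, and 23 to 30 between the controls. At the depth of these libraries 3 counts correspond to 0.118 to 0.197 CPM.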

Other observations

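Of the 8 members on chromosome 4, 3 lay close together, at chr4:155624854-155649938 (Cdk11b), chr4:155812489-155824543 (Ccnl2) and chr4:155831272-155833130 (Aurkaip1), and all 3 had a log2 fold change above 0 (0.64, 0.67 and 0.71). Cdk11b and Ccnl2, both linked to transcription and splicing, were highest in KO_2768 (110 and 209 CPM). Aurkaip1 was highest in KO_4258 (65.6 CPM).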
